A study of Mus musculus with 9 samples.

Results

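The comparison described here sets *Dnmt1* knockout ESCs that carry a catalytically inactive DNMT1 (1KO+1CI) against the parental knockout ESCs (1KO), both undifferentiated, at day 0. Its members are all features of the deposited RNA-seq tables, namely 15074 of 15074 genes and 38385 of 38385 listed repeat copies, and it uses 2 of the 9 libraries of the series, 1 for each line. For every feature the value compared is the level in 1KO+1CI minus the level in 1KO ESCs, as a difference in log2(FPKM + 1). FPKM is the number of fragments per kilobase of feature and per set number of mapped fragments, so levels can be compared between genes.

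The WT cells are J1 ESCs, a mouse embryonic stem cell line, and the 1KO cells are *Dnmt1*-/- ESCs derived from J1. The 1KO+1CI cells are *Dnmt1*-/- ESCs with a stably integrated transgene for the mutant protein under the CAG promoter, linked through an IRES to a zeocin resistance gene. The study established 2 independent clones from zeocin-resistant colonies. The sources used here do not say which gave the RNA, and the number in the name of the table's 1KO+1CI column is not explained. With 1 library, the effects of a clone and of the protein cannot be told apart. All lines were grown on mouse embryonic fibroblast feeders in serum with LIF. The same lines were also sequenced at days 2 and 4 of differentiation through embryoid bodies without LIF, after the feeders had been depleted on gelatin, and those libraries are used below only to follow the day 0 differences.

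With 1 library for each condition there is no spread between cultures, and no difference below was tested against one. FPKM values with 3 decimals fall on whole multiples of a step, from which whole reads were recovered for 7193 genes (47.7%) and 38263 repeat copies (99.7%). When values were shifted at random, this succeeded for 0.0333% of genes and 0.04% of copies. If 1 step is 1 read, the library depth, to the nearest 100000, was 28000000 reads in 1KO, 23900000 reads in 1KO+1CI and 20700000 reads in WT ESCs at day 0. A transcript of 1000 bases at 1 FPKM would then hold 28.0 reads in 1KO, with a Poisson 95% interval of 18.6 to 40.5. Where reads were recovered, the ratio between the libraries is given with an exact 95% binomial (Clopper-Pearson) interval, which covers counting error only and not the variation between cultures or clones. All 10 ESC markers examined, among them *Pou5f1*, *Sox2* and *Nanog*, were listed in both libraries, between 31.8 and 1519 FPKM in 1KO and between 38.3 and 1584 FPKM in 1KO+1CI ESCs.

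DNMT1 is the maintenance DNA methyltransferase. It is brought to replication forks by UHRF1, which binds hemimethylated CpG, and copies the methylation pattern of the old strand onto the new one. Its catalytic domain attacks cytosine through a cysteine, and replacing that residue with serine leaves a protein that can still bind DNA and its many partners, among them UHRF1, PCNA, HDACs and H3K9 methyltransferases. ESCs without DNMT1 survive with little DNA methylation, and IAP retroviruses, imprinted genes and germline genes are among the sequences that methylation is known to silence. The question this comparison addresses is which transcripts differ once the protein is present without its catalytic activity.

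The codon for this cysteine is the TGC in capitals in the coding strand of *Dnmt1*, shown because it is the codon that the mutation turns to serine. It lies in exon 32 of 39 of the annotated transcript, on the minus strand at chr9:20911813-20911815 (GRCm38, GENCODE M21), and the stretch printed covers chr9:20911771-20911857.
Dnmt1 catalytic codon: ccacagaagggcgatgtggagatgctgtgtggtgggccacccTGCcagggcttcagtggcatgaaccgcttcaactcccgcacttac

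*Dnmt1* was at 74.03 FPKM in the WT library, 13.7 FPKM in the 1KO library and 315 FPKM in the 1KO+1CI library at day 0. The 1KO+1CI level was thus the highest of the 3 libraries, 23.0-fold above 1KO, and the log2 difference of 4.43 was the largest of all genes in either direction. *Dnmt1* spans chr9:20907209-20959888 on the minus strand. The table gives 1 value per gene, so reads of the transgene and of the remaining endogenous RNA are counted together.

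A log2 difference over 1 was found for 27 genes that were higher in 1KO+1CI ESCs (0.179% of all genes) and 36 that were lower (0.239%). These counts depend on the pseudocount of 1, which shrinks differences of weakly expressed genes, and with 0.1 they were 232 and 264. Over 0.5 the counts were 367 higher (2.43%) and 545 lower (3.62%), and by any amount 47.6% of all genes were higher and 52.3% lower. The median over all genes was -0.01 and the SD across genes was 0.27, with 5% of genes below -0.45 and 5% above 0.40. Of the 63 genes past 1, 22 are microRNA, snoRNA or mascRNA entries, most of them with few reads, which leaves 17 higher and 24 lower genes of other kinds. Reads were recovered for 19 of the 27 higher and 25 of the 36 lower genes. For 4 of those 19 and 5 of those 25, the counting interval of the ratio included 1.

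**Figure D1:**
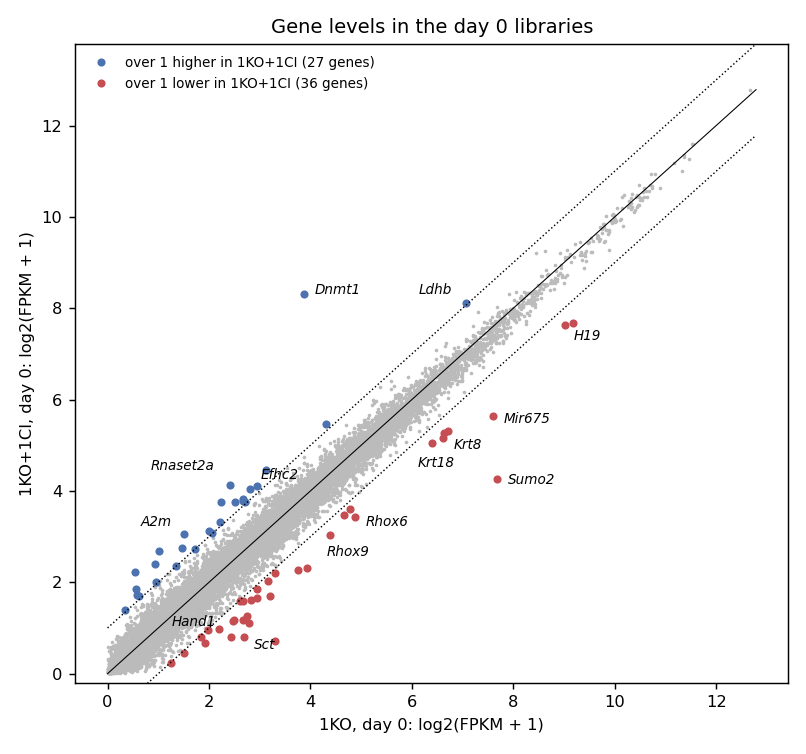
Levels of 15074 genes in log2(FPKM + 1) at day 0, 1KO on the horizontal and 1KO+1CI on the vertical axis, 1 library each. The solid line marks equal levels and the dotted lines a difference of 1. *Dnmt1* (difference 4.43) lies farthest above the diagonal, while *Sumo2*, *Mir675*, *H19* and the keratins *Krt8* and *Krt18* lie below it.

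Of the 36 gene lists examined, that of the trophoblast lineage had the most members below -0.5. Of 30 trophoblast genes, 24 were listed, and 22 of these 24 were lower in 1KO+1CI than 1KO ESCs, against 52.3% of all genes. The median difference was -0.51, against -0.01 over all genes. Of the 24, 13 were below -0.5 (against 3.62% of all genes), 5 below -1 (against 0.239%) and 0 above 0.5. With only the genes of at least 1 FPKM, the median was -0.61, and after centring each gene on genes of like GC content and length it was -0.44.

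*Sct*, which encodes the hormone secretin, was at 0.936 FPKM (WT), 5.50 FPKM (1KO) and 0.755 FPKM (1KO+1CI). It was 7.28-fold lower in 1KO+1CI than 1KO ESCs, a log2 difference of -1.89, and its 1KO level stood above both other libraries. *Hand1*, a transcription factor required for trophoblast giant cells, had 53 reads (WT), 243 (1KO) and 56 (1KO+1CI). The ratio of 1KO+1CI to 1KO was 0.270 (interval 0.198 to 0.363), and again only the 1KO library was high. *Wnt7b*, which signals in the chorion during placental development, followed with 3.31 FPKM (WT), 8.82 FPKM (1KO) and 3.62 FPKM (1KO+1CI), a log2 difference of -1.09.

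The simple-epithelium keratins *Krt8* and *Krt18*, which pair to form the intermediate filaments of trophectoderm and primitive endoderm, were lower in 1KO+1CI than in either other library. *Krt8* was at 112 FPKM (WT), 96.4 FPKM (1KO) and 34.8 FPKM (1KO+1CI), which rest on 4166, 4860 and 1499 reads. The 1KO+1CI to 1KO ratio was 0.362 (interval 0.341 to 0.383). *Krt18* was at 114 FPKM, 83.1 FPKM and 31.9 FPKM in the same order, with a ratio of 0.384 (interval 0.358 to 0.412). Thus both keratins differed from 1KO by nearly the same factor and lay below WT as well. *Krt14*, a basal keratin outside the trophoblast list, was at 0.212 FPKM (WT), 5.74 FPKM (1KO) and 1.41 FPKM (1KO+1CI).

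Further trophoblast regulators lay between -0.5 and -1. *Gcm1*, the determinant of syncytiotrophoblast, had 5 reads (WT), 63 (1KO) and 16 (1KO+1CI) (ratio 0.298, interval 0.160 to 0.522). *Ascl2*, an imprinted factor of the spongiotrophoblast, had 25, 121 and 52 reads (ratio 0.504, interval 0.357 to 0.703). *Gata2* had 0.803, 2.97 and 1.51 FPKM, and *Elf3* 14.4, 21.8 and 12.4 FPKM. Other members did not differ in this way, as *Tfap2c* stayed near 39.7 FPKM (1KO) and 39.4 FPKM (1KO+1CI) and *Fgfr2* near 7.10 and 6.96 FPKM. The highest member, *Syna*, differed by 0.18 on 13 and 22 reads. *Cdx2* and *Elf5*, which define the trophoblast stem cell state, are not in the table, and *Gata3* was at 0.738, 0.845 and 0.446 FPKM. In bulk RNA, fewer cells of a type and less RNA per cell cannot be told apart.

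*Krt8* and *Krt18* are close neighbours on chromosome 15, and both promoters are shown because the genes were lower together. The windows run from 250 bases before to 50 bases after the annotated start (RefSeq, GRCm38.p6), at chr15:102004293-102004592 on the minus strand for *Krt8* and chr15:102027966-102028265 on the plus strand for *Krt18*. Capitals mark CpG dinucleotides, the substrate of DNMT1, of which the *Krt8* window holds 6 and the *Krt18* window 17. Among 32851 promoter windows of 300 bases, 56.4% hold at least 6 CG and 31.4% hold at least 17. Methylation of these promoters was not analysed here.
Krt8: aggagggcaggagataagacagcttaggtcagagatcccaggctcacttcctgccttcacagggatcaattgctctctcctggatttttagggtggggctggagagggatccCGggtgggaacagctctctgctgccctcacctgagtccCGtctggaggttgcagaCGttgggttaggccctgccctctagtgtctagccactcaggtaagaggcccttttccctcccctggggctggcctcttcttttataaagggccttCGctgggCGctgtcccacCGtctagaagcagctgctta
Krt18: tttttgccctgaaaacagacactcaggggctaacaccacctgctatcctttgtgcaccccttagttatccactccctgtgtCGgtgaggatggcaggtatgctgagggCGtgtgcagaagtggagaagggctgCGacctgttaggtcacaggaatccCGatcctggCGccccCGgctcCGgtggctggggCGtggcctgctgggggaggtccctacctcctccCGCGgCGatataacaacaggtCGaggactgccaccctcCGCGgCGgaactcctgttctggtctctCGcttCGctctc

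**Figure D2:**
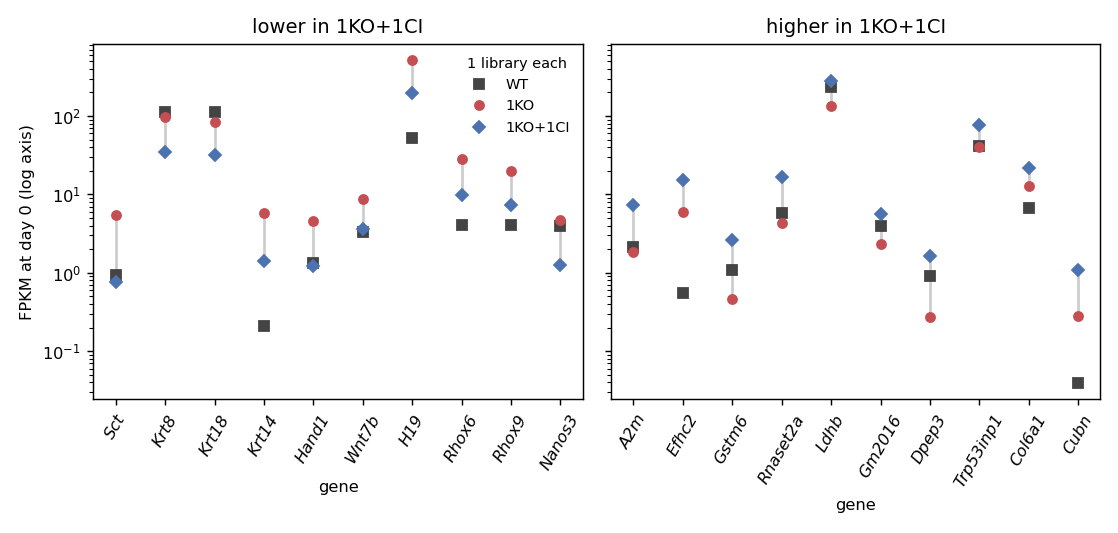
FPKM at day 0 on a log axis for 10 genes lower and 10 genes higher in 1KO+1CI than in 1KO ESCs, with 1 library for each of WT (squares), 1KO (circles) and 1KO+1CI (diamonds). In the lower group, *Krt8* and *Krt18* lie below WT (34.8 against 112 FPKM for *Krt8*), while *Rhox6* and *H19* lie between WT and 1KO.

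The Rhox genes are X-linked homeobox genes of the reproductive tract, placenta and germ line, and the cluster is methylated in the embryo proper. All 5 listed Rhox genes were lower in 1KO+1CI than 1KO ESCs, with a median of -0.88, 3 below -0.5 and 2 below -1. Of all genes, 52.3% were lower, 3.62% below -0.5 and 0.239% below -1. *Rhox6* was at 4.04 FPKM (WT), 28.2 FPKM (1KO) and 9.76 FPKM (1KO+1CI) (72, 682 and 201 reads), a ratio to 1KO of 0.345 (interval 0.294 to 0.405). *Rhox9* was at 4.13, 19.9 and 7.24 FPKM, a ratio of 0.363 (interval 0.3005 to 0.4361). *Rhox5* was at 43.0, 91.5 and 49.4 FPKM, a ratio of 0.540 (interval 0.499 to 0.583).

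In these 3 genes, 1KO+1CI ESCs lay between WT and 1KO. *Rhox13* and *Rhox1* differed less. *Rhox13* had 4 reads (WT), 136 (1KO) and 83 (1KO+1CI) (ratio 0.715, interval 0.538 to 0.947), and *Rhox1* had 5, 89 and 55 reads (ratio 0.724, interval 0.508 to 1.03), so that counting error alone covers equal levels of *Rhox1*. *Rhox6* and *Rhox9* are close relatives, and reads that fit both could have been assigned to either.

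Among imprinted genes, one locus stood out. *H19*, a maternally expressed non-coding RNA whose paternal copy is silenced by methylation, was at 52.99 FPKM (WT), 516 FPKM (1KO) and 197 FPKM (1KO+1CI). Its level in 1KO+1CI was 2.62-fold below 1KO, a log2 difference of -1.39, and still above WT. *Mir675*, the microRNA precursor within *H19* (chr7:142577064-142577147, minus strand), had 30 reads (WT), 451 (1KO) and 97 (1KO+1CI). Its ratio was 0.252 (interval 0.200 to 0.315), and the transcript of its host covers the same bases. *Igf2*, the paternally expressed neighbour of *H19*, was at 49.6 FPKM (WT), 21.95 FPKM (1KO) and 25.9 FPKM (1KO+1CI), a difference of 0.23.

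The mature products of *Mir675* are shown to identify the entry, with the seed (bases 2 to 8) in capitals. The library was made from poly(A) RNA, so the reads at this entry come from longer transcripts and do not measure the mature microRNAs.
mmu-miR-675-5p: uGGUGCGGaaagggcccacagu
mmu-miR-675-3p: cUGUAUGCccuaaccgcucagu

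The other imprinted genes showed no common shift. The 20 listed maternally expressed genes had a median of 0.02, with 3 below -0.5 (*H19*, *Ascl2* and *Cdkn1c*) and 1 above 0.5, namely *Meg3* at 18.6 FPKM (1KO) and 27.1 FPKM (1KO+1CI). Of all genes, 3.62% were below -0.5 and 2.43% above 0.5. The 29 paternally expressed genes had a median of -0.09. *Peg12* was the lowest with 149 reads (WT), 250 (1KO) and 96 (1KO+1CI) (ratio 0.450, interval 0.352 to 0.572), and *Zdbf2* the highest with a difference of 0.48.

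**Figure D3:**
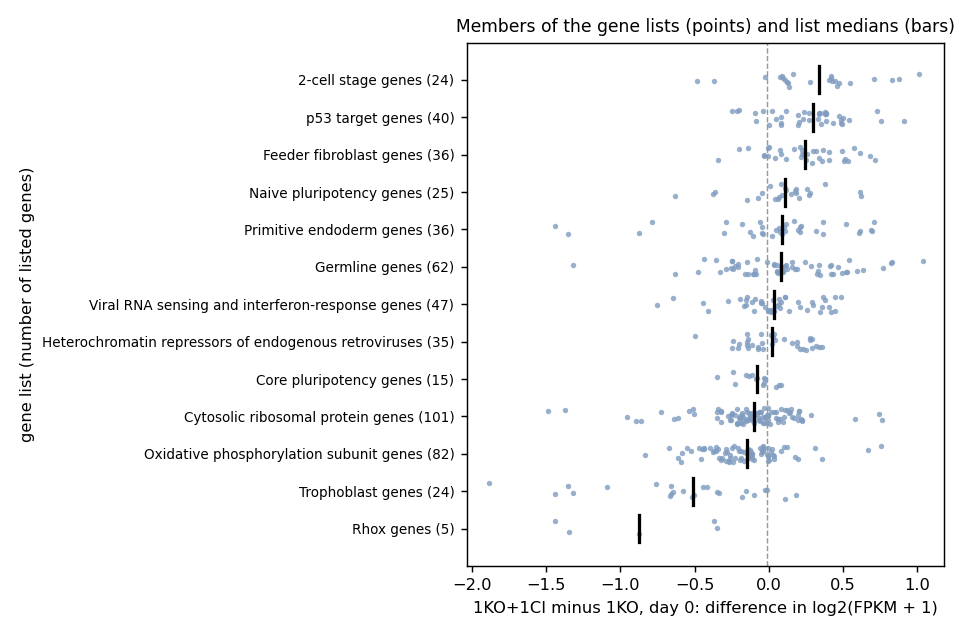
Differences between 1KO+1CI and 1KO ESCs at day 0 for the listed members of 13 gene lists, with the number of listed genes in brackets. Each point is a gene, bars mark list medians, and the dashed line marks the median of all genes (-0.01). The Rhox (-0.88) and trophoblast (-0.51) medians lie farthest to the left and the 2-cell (0.34) and p53 (0.30) medians farthest to the right.

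Among the groups that were higher in 1KO+1CI ESCs, genes of the 2-cell stage had the highest median. These are genes such as *Zscan4* and *Usp17l* paralogs that a small share of ESCs transcribes in bursts. Of 41 genes 24 were listed, 21 of the 24 were higher (47.6% of all genes were), and the median was 0.34. Of the 24, 5 were above 0.5 (against 2.43% of all genes) and 0 below -0.5. *Gm2016* was the highest, with 144 reads (WT), 114 (1KO) and 239 (1KO+1CI), a ratio of 2.46 (interval 1.96 to 3.10). *Gm5662* had 159, 145 and 265 reads (ratio 2.14, interval 1.74 to 2.64), and *Zscan4d* 112, 231 and 292 reads (ratio 1.48, interval 1.24 to 1.77). *Tdpoz4* was the lowest, with 24 reads (1KO) and 7 (1KO+1CI). The WT level of *Gm2016* lay between those of the other lines. Many of these genes are near-identical paralogs, and the sources used here do not state how multimapping reads were split among them.

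The p53 target genes, which the tumour suppressor p53 activates after DNA damage and other stress, were slightly higher as a group. Of 40 genes 34 were higher in 1KO+1CI ESCs, against 47.6% of all genes, with a median of 0.30. Of the 40, 5 were above 0.5 (against 2.43% of all genes) and 0 above 1 or below -0.5. *Trp53inp1*, an inducer of cell death and autophagy, was at 41.3 FPKM (WT), 40.3 FPKM (1KO) and 76.9 FPKM (1KO+1CI) (1.91-fold above 1KO). *Plk2* followed with 26.1, 24.9 and 42.8 FPKM (ratio 1.72, interval 1.62 to 1.82), and *Pmaip1*, which encodes the pro-apoptotic protein NOXA, had 16.4, 11.6 and 20.02 FPKM (ratio 1.72, interval 1.58 to 1.88). In all 3 genes 1KO+1CI was the highest library, and for *Trp53inp1* and *Plk2* WT lay close to 1KO. The canonical targets *Cdkn1a* and *Mdm2* differed less, by 0.39 and 0.34, and *Tigar* was the lowest at -0.25.

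Of the germline genes, 62 of 83 were listed, with a median of 0.09. Of the 62, 9 were above 0.5 (against 2.43% of all genes) and 2 below -0.5 (against 3.62%). *Dpep3*, a testis dipeptidase, had 32 reads (WT), 13 (1KO) and 65 (1KO+1CI) (ratio 5.86, interval 3.20 to 11.6). *Sohlh2*, a transcription factor of early germ cells, had 201, 429 and 695 reads (ratio 1.90, interval 1.68 to 2.15), and *Smc1b*, the meiotic cohesin subunit, 192, 721 and 1162 reads (ratio 1.89, interval 1.72 to 2.08). For *Sohlh2* and *Smc1b*, 1KO+1CI ESCs thus lay above 1KO, which in turn lay above WT. *Nanos3*, an RNA-binding protein of primordial germ cells, was the lowest, at 3.92 FPKM (WT), 4.65 FPKM (1KO) and 1.26 FPKM (1KO+1CI), a difference of -1.32.

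Primitive endoderm genes were divided. Of 36 listed genes, 6 were above 0.5 (against 2.43% of all genes) and 4 below -0.5 (against 3.62%), with a median of 0.09. The lowest members were the epithelial *Krt8*, *Krt18* and *Rhox5* described above and *Cited1*. The highest was *Cubn*, the cubilin receptor of visceral endoderm, at 0.0390 FPKM (WT), 0.281 FPKM (1KO) and 1.10 FPKM (1KO+1CI), a difference of 0.71. *Pdgfra*, the receptor that marks primitive endoderm and fibroblasts alike, followed with 0.832, 1.77 and 3.48 FPKM (0.70). The 7 primitive endoderm markers examined, *Pdgfra* among them, summed to 6.48 FPKM (WT), 9.97 FPKM (1KO) and 14.7 FPKM (1KO+1CI). Their highest level was that of *Dab2*, at 3.36, 4.65 and 7.10 FPKM. Their lowest was that of *Foxa2*, at 0.0913, 0.203 and 0.119 FPKM, which was lower in 1KO+1CI than 1KO ESCs.

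Feeder fibroblast genes were also higher, which bears on genes expressed in both cell types. Of 36 listed fibroblast genes 29 were higher in 1KO+1CI ESCs, against 47.6% of all genes, with a median of 0.25. Of the 36, 7 were above 0.5 (against 2.43% of all genes) and 0 below -0.5. *Col6a1* was the highest, at 6.78 FPKM (WT), 12.7 FPKM (1KO) and 21.5 FPKM (1KO+1CI) (ratio 1.70, interval 1.59 to 1.82), whereas *Col1a1* did not differ to that extent (75.962 FPKM (1KO) and 74.357 FPKM (1KO+1CI)). Of the 10 fibroblast markers examined, 9 were listed, and their summed level was 97.2 FPKM (WT), 191 FPKM (1KO) and 221 FPKM (1KO+1CI). None of the 9 is at 0, with the lowest at 4.42 FPKM (*Twist1*) in 1KO and 5.33 FPKM in 1KO+1CI ESCs, while *Lum* is not in the table. The part of feeder RNA in the differences of *Pdgfra* and the other genes named here was not tested.

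Further genes were higher by over 1. *A2m*, the protease inhibitor alpha-2-macroglobulin, had 203 reads (WT), 241 (1KO) and 819 (1KO+1CI), a ratio of 3.98 (interval 3.45 to 4.62). *Efhc2*, an X-linked gene for a ciliary protein, had 30, 437 and 959 reads, a ratio of 2.57 (interval 2.29 to 2.89). *Gstm6*, a glutathione transferase with close paralogs, had 26, 15 and 71 reads, a ratio of 5.55 (interval 3.15 to 10.4). *A2m* was therefore high in 1KO+1CI ESCs alone, and *Efhc2* was lowest in WT and highest in 1KO+1CI ESCs. *Ldhb*, a lactate dehydrogenase subunit, was at 234 FPKM (WT), 133 FPKM (1KO) and 278 FPKM (1KO+1CI), a difference of 1.06. Over 39 genes of glycolysis and glucose transport, the median was 0.05 and 25 were higher, against 47.6% of all genes. *Ldhb* and *Gapdh* were above 0.5 (against 2.43% of all genes) and 2 genes below -0.5 (against 3.62%), the lowest being *Eno3* at -0.69. *Rnaset2a* was at 5.74, 4.33 and 16.5 FPKM, but it has a near-identical copy, *Rnaset2b*, and its value is uncertain.

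*Efhc2* and *Scml2*, a germline Polycomb gene chosen here after its values were seen (0.395 FPKM (WT), 3.00 FPKM (1KO) and 7.70 FPKM (1KO+1CI)), are both X-linked and share the same order of the 3 libraries. Their promoter windows, set at RefSeq starts, are shown with CpG dinucleotides in capitals. These starts differ from those of the GENCODE genes. *Scml2* spans chrX:161117193-161258213 in GENCODE, so its window lies inside the gene. *Efhc2* spans chrX:17132049-17319368 on the minus strand, so its window lies upstream of the gene. The *Efhc2* window (chrX:17319892-17320191, minus strand) holds 4 CG and the *Scml2* window (chrX:161162500-161162799, plus strand) holds 13. Of all promoter windows, 68.6% hold at least 4 and 37.9% at least 13.
Efhc2: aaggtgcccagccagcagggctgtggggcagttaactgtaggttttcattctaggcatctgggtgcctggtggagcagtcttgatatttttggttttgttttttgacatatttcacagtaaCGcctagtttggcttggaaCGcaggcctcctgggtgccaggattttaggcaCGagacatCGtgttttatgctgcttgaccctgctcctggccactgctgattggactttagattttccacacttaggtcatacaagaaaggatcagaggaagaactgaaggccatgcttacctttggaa
Scml2: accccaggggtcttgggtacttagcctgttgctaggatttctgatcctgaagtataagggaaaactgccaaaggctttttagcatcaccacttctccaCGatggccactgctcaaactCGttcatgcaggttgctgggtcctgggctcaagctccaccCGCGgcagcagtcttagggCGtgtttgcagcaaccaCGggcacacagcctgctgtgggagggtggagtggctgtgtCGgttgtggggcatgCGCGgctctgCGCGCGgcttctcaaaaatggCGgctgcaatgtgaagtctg

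*Sumo2*, which encodes a small ubiquitin-like modifier, had the deepest difference of all genes. It was at 149 FPKM (WT), 204 FPKM (1KO) and 18.2 FPKM (1KO+1CI) (3075, 5691 and 433 reads), a log2 difference of -3.42 at day 0 against -0.31 at day 2 and -0.01 at day 4. Some other large differences concern genes with processed copies in the genome. *Rpl17* (574 FPKM (1KO) and 204 FPKM (1KO+1CI)) and *Rpl30* (98.4 and 37.3 FPKM) were lower, and *Gapdh* (7.75 and 21.1 FPKM) was higher. *Gapdh*, a glycolytic enzyme that is abundant in all cells, was thus listed at a low level in every day 0 library (15.2 FPKM in WT). The annotation holds pseudogenes of *Rpl17*, *Rpl30* and *Gapdh*, and reads that fit several copies can leave a gene entirely or go to another copy, so these 3 values are uncertain. Over 101 cytosolic ribosomal protein genes, 11 were below -0.5 (against 3.62% of all genes) and 3 above 0.5 (against 2.43%). Their median was -0.10, and it was 0.02 after centring on GC content and length.

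The rest of the DNA methylation machinery differed little. Among the DNA methyltransferase and UHRF genes, 6 of the 7 listed lay between -0.29 and 0.00, and only *Dnmt1* was outside. *Dnmt3b*, a de novo methyltransferase, was at 73.6 FPKM (WT), 107 FPKM (1KO) and 87.6 FPKM (1KO+1CI), and *Dnmt3a* at 16.7, 20.6 and 18.7 FPKM. *Dnmt3l*, their catalytically inactive cofactor, was at 203 FPKM in both lines against 41.3 FPKM in WT. *Uhrf1*, the factor that recruits DNMT1, was at 107, 156 and 132 FPKM. Of 19 genes for partners at replication forks, 1 was past 0.5 in either direction, namely *Pclaf*, which encodes the PCNA-associated factor PAF15 (31.4 and 21.6 FPKM, ratio 0.688, interval 0.640 to 0.738). Of all genes, 2.43% were above 0.5 and 3.62% below -0.5.

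Genes of methylation removal were similar. Over 17 genes the median was -0.02, and 1 was past 0.5, the glycosylase *Smug1*, with 383 reads (1KO) and 204 (1KO+1CI) (ratio 0.624, interval 0.524 to 0.742). The share of all genes below -0.5 was 3.62%, and above 0.5 it was 2.43%. *Tet1*, the main TET dioxygenase of ESCs, was at 31.2 FPKM (WT), 37.7 FPKM (1KO) and 47.1 FPKM (1KO+1CI), *Tet2* at 6.28, 6.54 and 8.57 FPKM, and *Tet3* at 1.72, 1.32 and 1.21 FPKM.

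None of the 35 genes for heterochromatin repressors of endogenous retroviruses was past 0.5, and their median was 0.02. Of all genes, 2.43% were above 0.5 and 3.62% below -0.5. *Trim28*, the corepressor that KRAB zinc finger proteins bring to retroviruses, was at 453 FPKM (WT), 679 FPKM (1KO) and 588 FPKM (1KO+1CI) (-0.21). *Setdb1*, its H3K9 methyltransferase partner, was at 26.3, 34.2 and 32.5 FPKM (-0.07). The lowest was *Ehmt2* (G9a) at -0.50 and the highest *Atf7ip*, the partner of SETDB1, at 0.36. In the core pluripotency list 0 of 15 genes were past 0.5, with *Lin28a* lowest at -0.35. In the list of viral RNA sensing and interferon response 2 of 47 were below -0.5, against 3.62% of all genes, and 0 above 0.5. These 2 were *Oas1a* (341 reads (1KO) and 154 (1KO+1CI), ratio 0.529, interval 0.435 to 0.642) and *Irf3*.

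The endogenous retroviruses themselves did differ, and within them one group of IAP elements. IAPs are retroviruses of the ERVK class that are still mobile in mice. An intact copy has a long internal part between 2 LTRs, which hold the promoter. In the repeat table the internal parts are listed as IAPEz-int and the LTRs that flank them as IAPLTR1_Mm and IAPLTR1a_Mm. The table gives no genomic position, so no sequence of a copy could be shown.

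Of 371 repeat families with at least 10 listed copies, 5 were below -0.5 (1.35%) and 2 above 0.5 (0.539%). The 3 lowest were IAPLTR1_Mm, IAPEz-int and IAPLTR1a_Mm, with differences of -1.37, -1.32 and -1.18, and the next, RLTR20C2_MM, was at -0.60. The fifth, LSU-rRNA_Hsa at -0.56, is ribosomal RNA. Among single copies, 1754 of 38385 were over 1 higher (4.57%) and 1418 over 1 lower (3.69%). With a pseudocount of 0.1 in place of 1, copies over 1 higher numbered 6140 and copies over 1 lower 3825. Of the 3142 ERVK copies, 449 were over 1 lower and 44 over 1 higher. The 3 IAP families held 422 of these 449 copies, and in the remaining 2615 ERVK copies 27 were over 1 lower (1.03%) and the median was 0.02. The MaLR (ERVL-MaLR), ERVL, ERV1 and L1 groups had medians between 0.08 and 0.15, near the 0.08 of all copies.

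IAPEz-int was listed with 426 copies, and the 424 of them with recovered reads held 11130 reads (WT), 153746 (1KO) and 40678 (1KO+1CI). Summed over these 424 copies, the depth-corrected ratio of 1KO+1CI to 1KO was 0.311 (interval 0.307 to 0.314). Copy by copy, the FPKM ratio had a median of 0.302, a lowest value of 0.102 and a highest value of 0.825. All 426 copies were therefore lower, and for 417 of the 424 copies with recovered reads the counting interval of the ratio lay below 1. Of the 426 copies, 80.8% were over 1 lower, against 3.69% of all listed copies. Against WT, 417 copies were higher in 1KO+1CI and 9 were lower. The level of a copy in 1KO ESCs ran from 0.425 FPKM to 17.5 FPKM with a median of 7.12 FPKM, and in 1KO+1CI ESCs from 0.0790 FPKM to 9.85 FPKM with a median of 2.09 FPKM.

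The size of the difference varied little with the length of the copy implied by its step. In the group of the 106 shortest copies (474 to 1376 bases) the median FPKM ratio was 0.331, and in that of the 106 longest (2208 to 5425 bases) it was 0.293. Copies of a family can share reads, so they are not replicates.

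The LTRs of this group were lower as well. IAPLTR1_Mm, with 76 copies of a median length of 396 bases, had 877 reads (WT), 6975 (1KO) and 1855 (1KO+1CI) (ratio 0.312, interval 0.297 to 0.329), and 75 of its 76 copies were lower. IAPLTR1a_Mm, with 25 copies, had 69, 697 and 141 reads (ratio 0.238, interval 0.197 to 0.285), all 25 lower. IAPA_MM-int had 4 copies with 9, 230 and 49 reads (ratio 0.250, interval 0.180 to 0.342). In all 4 families 1KO was the highest library and WT the lowest.

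The other 18 listed IAP families differed less. The lowest of them was IAPEY5_LTR at -0.41, on 6 reads (1KO) and 2 (1KO+1CI). IAPLTR2_Mm (21 copies, 276 and 155 reads, ratio 0.660, interval 0.538 to 0.806) was lower to a smaller extent, as were IAP-d-int (17 copies, ratio 0.733, interval 0.604 to 0.888) and IAPEY4_LTR (6 copies, ratio 0.723, interval 0.540 to 0.963). For IAPEY4_I-int (20 copies, 1090 and 850 reads, ratio 0.916, interval 0.837 to 1.00) counting error alone covers equal levels. IAP1-MM_I-int was higher, with 7 of 7 copies and 578 and 666 reads (ratio 1.35, interval 1.21 to 1.52). The highest was IAP1-MM_LTR at 0.48, on 31 and 45 reads.

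**Figure D4:**
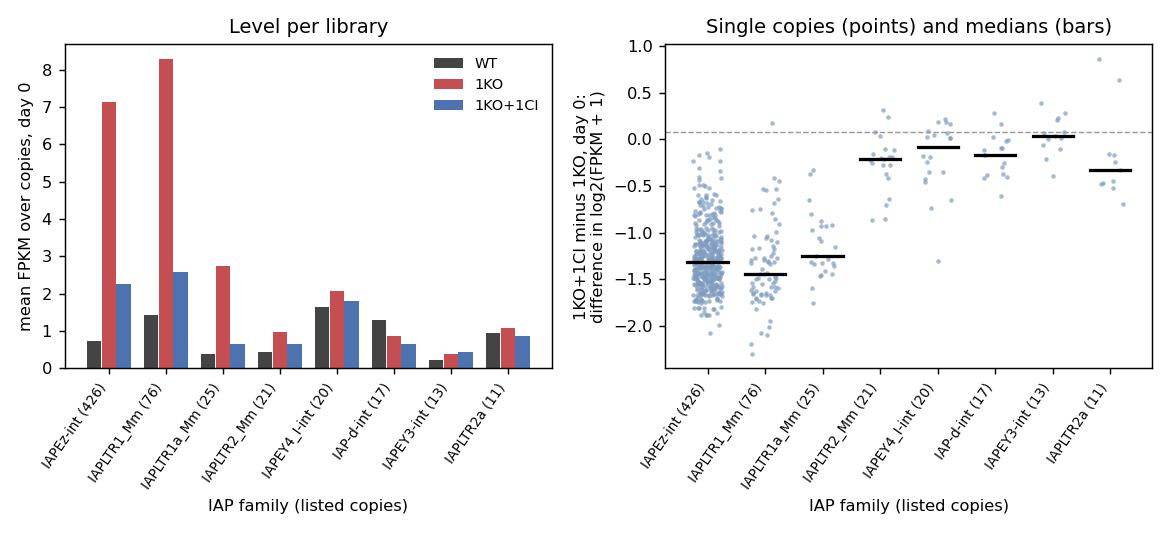
IAP families with at least 10 listed copies at day 0, 1 library per line. Left, mean FPKM over copies in WT, 1KO and 1KO+1CI ESCs. Right, the difference between 1KO+1CI and 1KO for single copies (points) with the median of each family (bars) and of all copies (dashed line, 0.08). IAPEz-int, IAPLTR1_Mm and IAPLTR1a_Mm (family differences -1.32, -1.37 and -1.18) lie far below the other 5 families.

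At the upper end the families with at least 10 copies differed less. RMER6B, an LTR (16 copies, 114 reads (1KO) and 199 (1KO+1CI)), and ORR1D1-int, an internal MaLR part (13 copies, 288 and 456 reads), were at 0.54 each, with ratios of 2.05 (interval 1.62 to 2.61) and 1.86 (interval 1.60 to 2.16). HAL1, L1MA6 and RLTR40 followed at 0.49, 0.45 and 0.42. When libraries were scaled by the median ratio over repeat copies, which lowers the median of all copies from 0.08 to 0.02, 0 families were above 0.5.

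Fewer than 1 in 2 of the genes over 1 at day 0 kept a difference over 0.5 in the same direction during differentiation. The genes over 1 at day 0 were followed in the day 2 and day 4 libraries, which had no part in choosing them. Of the 27 higher genes, 17 were higher at day 2, when 53.5% of all genes were, and 12 at day 4, when 50% were. Of the 36 lower genes, 25 were lower at day 2 (46.4% of all genes) and 12 at day 4 (50%). A difference over 0.5 in the same direction was kept by 11 of 27 higher genes at day 2 (2.32% of all genes) and 6 at day 4 (4.36%), and by 8 of 36 lower genes at day 2 (1.67%) and 5 at day 4 (3.44%). The median of the lower genes was -0.24 at day 2 and 0.24 at day 4.

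Beside *Dnmt1*, 5 genes kept a difference over 0.5 in the same direction at both days, *Aim2*, *Efhc2*, *Mir6381*, *Oxld1* and *Rhox9*, of which *Aim2* and *Oxld1* were chosen after their values were seen. *Efhc2* differed by 1.23, 0.66 and 0.62 at days 0, 2 and 4, and *Rhox9* by -1.35, -0.80 and -0.54. *Aim2*, a sensor of cytosolic DNA, differed by 1.04, 0.54 and 0.53. Of the 5 lower genes below -0.5 at day 4, those other than *Rhox9* and *Oxld1* were *Mir5122* (-0.87), *Gm12191* (-0.64, but 0.63 at day 2, chosen after its values were seen) and *Rpl30* (-0.64, but 0.59 at day 2). *Gm12191* is a processed pseudogene, at 104 FPKM (1KO) and 38.4 FPKM (1KO+1CI) at day 0, near the 98.4 and 37.3 FPKM of *Rpl30*. Whether these entries share reads was not tested. Other lower genes did not keep the difference. *Krt8* went from -1.44 to -0.15 and 0.96, *H19* from -1.39 to 0.02 and 0.04, and *Sct* from -1.89 to -0.83 and 0.29. The trophoblast list had a median of -0.19 at day 2 and 0.30 at day 4, and the Rhox list -0.04 and -0.01.

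For IAPEz-int, 237 of the 426 copies were lower in 1KO+1CI at day 2 and 5 at day 4, and 3 copies were lower on all 3 days. The median difference over all listed copies was -0.01 at day 2 and 0.01 at day 4. The family difference was -0.02 at day 2 and 0.44 at day 4, so its sign at day 4 was opposite to that at day 0. Among the higher groups, the 2-cell list had medians of 0.34, 0.15 and -0.11 over the 3 days, the p53 list 0.30, 0.19 and 0.44, and the fibroblast list 0.25, 0.42 and 0.54. *Dnmt1* remained higher in 1KO+1CI cells, by 2.82 at day 2 and 3.58 at day 4.

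**Figure D5:**
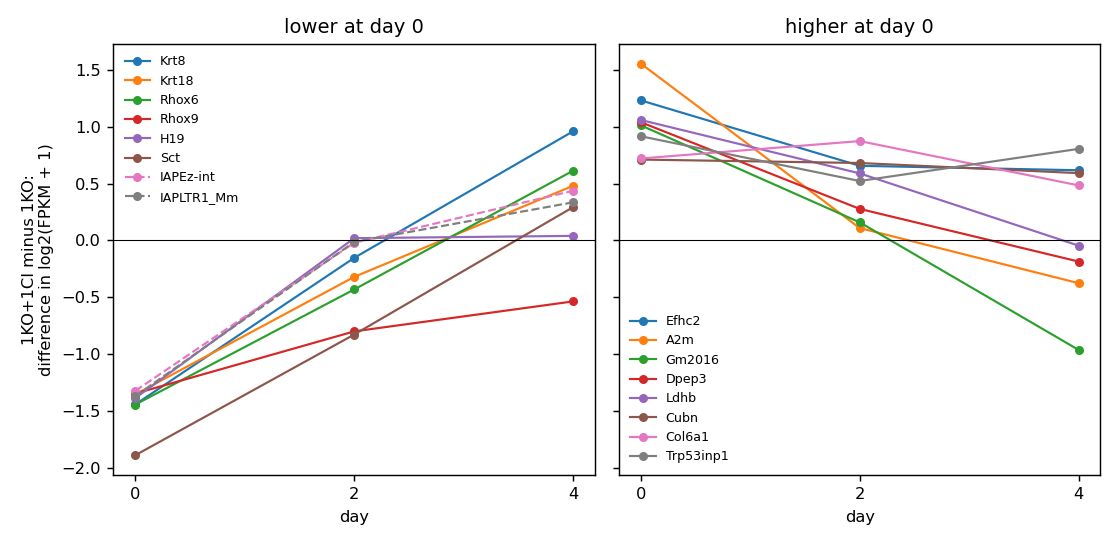
Difference between 1KO+1CI and 1KO at days 0, 2 and 4 in log2(FPKM + 1), from 1 library per line and day, for genes and IAP families (dashed) that were lower (left) or higher (right) at day 0. The lower group lies nearer to 0 or above it at day 4, with *Rhox9* still at -0.54, and *Efhc2*, *Cubn*, *Col6a1* and *Trp53inp1* stay above 0.

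No autosome or X stood apart between the 2 lines by its median. Chromosome 11 had the most genes of at least 1 FPKM, 996, and held the most below -1. Of the 996, 10 were below -1 (against 0.239% of all genes) and 1 above 1 (against 0.179%). The 10 include *Snora5c*, with 15 reads (1KO) and 3 (1KO+1CI), and the pseudogene *Gm12191*. No other chromosome held more than 4 genes below -1. Over genes of at least 1 FPKM the chromosome medians lay between -0.07 and 0.03 for all autosomes and the X, and the 5 genes of the Y had a median of 0.16. Against WT, however, both lines differed on chromosome 8, where the median of 665 genes was -0.48 in 1KO and -0.55 in 1KO+1CI ESCs against 0.02 and -0.01 on the other chromosomes. The WT values given above for genes on that chromosome (*Nanos3* and *Dpep3*) carry this offset, and the 1KO+1CI to 1KO ratios do not.

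A trend with base composition and transcript length ran through the whole comparison. Genes of at least 1 FPKM were split into 10 bins by the GC content of their longest transcript. From the lowest bin (29.6% to 41.5%) to the highest (58.1% to 82.9%), the median difference went from 0.09 to -0.18. It went from -0.14 in the bin of the shortest transcripts to 0.12 in that of the longest. At day 2 the GC bins lay between 0.05 and -0.01 and at day 4 between -0.02 and 0.03. The length bins lay between 0.01 and 0.02 at day 2. At day 4 they went from -0.09 in the shortest bin to 0.06 in the longest. Trophoblast genes such as *Krt8* (57.1% GC) and *Sct* (59.5%) are in the upper part of this range, and *Trp53inp1* (38.8%) and *Efhc2* (40.2%) in the lower part. After centring on GC content and length, the trophoblast median was -0.44, the Rhox median -0.77, the 2-cell median 0.33 and the p53 median 0.31.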

How the data were processed

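RNA from WT, 1KO and 1KO+1CI cells at days 0, 2 and 4 was enriched with oligo(dT) and sequenced as 9 libraries, 1 per condition. Per the labels, the authors used Trim Galore, HISAT2, SAMtools and HOMER with the mm10 build. The sources used here give no versions, no use of strand and no treatment of multimapping reads. The authors deposited FPKM values per gene and per repeat copy, with no raw counts. Repeat copies carry a name and number but no position, and 90 entries share both.

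Here, 21 entries of the gene table were left out (20 turned into dates and 1 named 0), which left 15074 genes. Differences are in log2(FPKM + 1), where the pseudocount of 1 shrinks differences of weakly expressed genes. A family level is the mean FPKM over its copies. Reads were recovered from FPKM steps within 0.1 of a step, a procedure tested on simulated data. Positions, GC content and length came from GENCODE M21. Python 3.11.15, numpy 2.4.6, pandas 2.3.3, scipy 1.17.1 and matplotlib 3.10.9 were used.

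No test was possible with 1 library per condition. A difference of over 1 for genes and copies, or 0.5 for families and lists, was counted and set beside the share of all features. Genes named in the text were *Dnmt1*, the 12 highest and 12 lowest differences among genes of at least 1 FPKM, list members past 1, the highest and lowest member of each of 36 lists, and genes of DNA methylation and heterochromatin. Further members of these lists are named as examples, chosen after their values were seen. Named families were all IAP families and the 5 highest and 5 lowest with at least 10 copies. The comparison and the lists were chosen with earlier results of these data known. Alternatives varied the pseudocount, filters, scaling and the summary over copies.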

Additional observations from a re-analysis of the deposited data

Results flagged for a closer look

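Several named features differed in opposite directions at day 0 and at a later day, by over 0.5 on both days for genes. Each value is a single library minus another, and the change between days was not tested. Among genes lower in 1KO+1CI ESCs at day 0, the difference at day 4 was 0.96 for *Krt8*, 0.61 for *Rhox6*, 0.87 for *Wnt7b*, 1.47 for *Acta1*, 0.72 for *Dusp5*, 0.60 for *3830417A13Rik*, 1.59 for *Mascrna* and 0.67 for *Mir7036*. At day 2 it was 1.44 for *Rpl17*, 0.59 for *Rpl30* and 0.52 for *Mir3960*. Among genes higher at day 0, the difference at day 4 was -0.96 for *Gm2016*, -3.63 for *Gapdh*, -2.05 for *Ndufa4l2*, -1.12 for *Mir410* and -0.52 for *Mir92-1*. At day 2 it was -0.69 for *Gstm6*, -0.71 for *Hist1h4d* and -0.78 for *Mir207*, and *Rnaset2a* was at -0.65 at day 2 and -0.86 at day 4.

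IAP families with a smaller opposite difference are given too. Among those lower at day 0, the difference at day 4 was 0.44 for IAPEz-int, 0.33 for IAPLTR1_Mm and 0.34 for IAPLTR1a_Mm. IAPA_MM-int, on 4 copies, was at 0.41 at day 2 and 0.29 at day 4, and IAPEY4_LTR, on 6 copies, at 0.27 and 0.31. IAPLTR4, on 5 copies and higher at day 0, was at -0.32 at day 2. These differences between days were not tested either.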

How the results depend on the processing

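Among 1172 alternative values for 221 results, 904 stayed near the reported value and 268 moved. Near meant within 0.1 on the log2 scale, or within 1.5 times for a count. For the share of genes that kept their sign at a later day, it meant within a set number of percentage points. No value past its threshold changed sign. Of the alternative values for the main results, 35 stayed and 24 moved. The main results were *Dnmt1*, the counts past a threshold, the trophoblast and Rhox medians, IAPEz-int and the genes followed to later days. With a pseudocount of 0.1, 232 genes were over 1 higher and 264 lower, copies over 1 higher numbered 6140 and copies over 1 lower 3825, 10 and 8 families were past 0.5, the trophoblast median was -0.71 and IAPEz-int -1.62. With one of 0.01, 425 and 423 genes were over 1, 17 families were higher and 8 lower, the trophoblast median was -0.75 and IAPEz-int -1.66. With genes of at least 1 FPKM only, the trophoblast median was -0.61. Counting all listed families gave 71 higher and 63 lower, and the median over copies 13 higher. Median-ratio factors over repeat copies gave 0 higher and 8 lower families and -1.45 for IAPEz-int. Of the alternatives chosen after seeing the data, leaving out microRNA, snoRNA and mascRNA entries gave 17 genes higher, leaving out IAP families 2 families lower, and centring on GC content and length a Rhox median of -0.77. The cause of these shifts was not tested. No replicate could be left out, since each condition has 1 library. Depth limits weakly expressed genes, since 10 of the 19 higher and 10 of the 25 lower genes with recovered reads hold under 50 reads in both libraries together, against 1063 of all 7193 genes with reads. No paired analysis was possible because each line has 1 library per day, so a pair at day 0 has no replicate.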

Other observations

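Other gene groups, not described above, had median differences between -0.15 and 0.15 at day 0. Over 25 naive pluripotency genes the median was 0.11, with *Spp1*, which encodes osteopontin, highest at 0.63 and *Myc* lowest at -0.63. Over 82 oxidative phosphorylation genes it was -0.15, with *Ndufa8* lowest at -0.84. Of the 82, 68 were lower (against 52.3% of all genes) and 14 higher. Below -0.5 were 7 (against 3.62% of all genes) and above 0.5 were 2 (against 2.43%). Over 25 cholesterol synthesis genes the median was -0.13, with *Pmvk* lowest at -0.64. Of the 25, 20 were lower (against 52.3% of all genes) and 5 higher. Over 27 Polycomb genes the median was -0.01, and *Cbx2*, a subunit of the PRC1 complex, was lowest at -0.81. Over 57 Zfp genes of high number, many of which encode KRAB zinc finger proteins, the median was 0.15. Of the 57, 1 was above 0.5 (against 2.43% of all genes) and 0 below -0.5 (against 3.62%).

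Over 38 cell cycle genes the median was -0.06. *Rbl2*, a retinoblastoma family member, was highest at 0.84 and *Ccne1* lowest at -0.57. Over 20 Nodal pathway genes it was -0.02, with *Cfc1* lowest at -0.65 and *Lefty2* highest at 0.40. Over 28 formative epiblast genes it was -0.14, and the lowest member was *Krt18*.

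Satellite repeats, listed as 372 copies, had a median difference of 0.19, against 0.08 for all copies. Of these, 12 copies were over 1 higher (3.23%, against 4.57% of all copies) and 4 over 1 lower (1.08%, against 3.69%). Both shares were below those of all copies. Their median level was 7.58 FPKM (WT), 8.20 FPKM (1KO) and 9.78 FPKM (1KO+1CI).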
